A study of Rattus norvegicus with 12 samples.

Results

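The proteins of the cytosolic ribosome were followed through the 67 of 22505 probes whose platform symbol is Rpl or Rps followed by a digit, or Rplp0, Rplp1, Rplp2 or Rpsa, with the Rps6k kinases left out. Each of the 67 probes stood for a different gene. By symbol, 43 belonged to the large subunit and 23 to the small subunit. The remaining probe, Rps19bp1, bears the name of a protein that binds Rps19 and was put in neither subunit. Expression was measured with Illumina RatRef-12 Expression BeadChips, a 1-colour bead array, in whole livers of 12 male Wistar rat pups aged 1 day. The dams were fed a control diet (C), a low protein diet with less casein (MLP), or that low protein diet with added folic acid (MLP-F), and 4 livers were taken per diet. Per the study's methods a single litter was used for each diet, so the pups of a group were littermates, diet and litter cannot be told apart, and every p-value measures the spread among pups. No control diet with added folic acid was studied.

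A ribosome translates messenger RNA by joining a small subunit, which decodes the message, to a large subunit, which forms the peptide bonds. Ribosomal proteins are made in matched amounts for both subunits, and much of this matching is set after transcription. Their messenger RNAs usually begin with a terminal oligopyrimidine (TOP) tract, a C at the start of transcription followed by a run of C and T (U in the RNA), through which mTOR signalling and the binding protein LARP1 control their translation in response to nutrients. The liver is a major site of protein synthesis, and around birth it also holds blood-forming cells. Array values are RNA levels and do not report translation.

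The gene starts below are shown because the TOP tract is the sequence feature that these genes are known to share, and the genes are those to which the comparisons below return. The windows are from RefSeq on build GRCr8 and run 5′ to 3′ over 30 bases, of which 10 precede the annotated start. Capitals mark a C followed by at least 4 bases that are each C or T, with that C within 5 bases of the annotated start on the gene's own strand. A window without capitals has no such match.
Rpl10, chrX:157205840-157205869, plus strand: gtgggagcgtCTCTTTTCCTCTggcgcggt
Rpl17, chr18:70856266-70856295, plus strand: ttcgcgcttcCTCTTCCTgttagcggccag
Rplp1, chr8:71290853-71290882, minus strand: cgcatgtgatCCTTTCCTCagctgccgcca
Rpl4, chr8:73566467-73566496, plus strand: tcttcCTTTTCCTgtgggagcagccgggta
Rpl14, chr8:129163610-129163639, plus strand: ggccctctccCTTCTCgctgagcgccgcca
Rpl13a, chr1:104748894-104748923, minus strand: tcctttcctaggcggctgccgaagatggcg
Rpl5, chr14:1995206-1995235, minus strand: ctttcccacgtcgcttgcgtcctggaggtg
Rps26, chr7:1643385-1643414, minus strand: ccgccgggtcCTCTTTCgagtcttggctcc
Rps24, chr16:96507-96536, plus strand: ggtcctcttttCCTCCTTTacagctcgggc
Rps23, chr2:23814507-23814536, plus strand: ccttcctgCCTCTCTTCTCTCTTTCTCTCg
Rps3a, chr2:173827023-173827052, minus strand: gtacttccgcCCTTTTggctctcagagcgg
Rpsa, chr8:128728869-128728898, plus strand: ccgcgctaccctggaacgggtccgtacggc
Of the 67 members, 55 were matched to a RefSeq start, and 32 of these (58.2%) held such a match, against 19.0% of 27457 genes. At the annotated start itself 21 member genes (38.2%) had a match, against 3.11% of all genes. By subunit, 20 of 35 large subunit genes and 12 of 19 small subunit genes held a match within 5 bases. Nearly all of these genes also have many copies in the rat genome. The RefSeq table held 883 further genes whose symbol adds an l and a number, or -ps, to the symbol of a member, for 63 of the members, among them 36 for Rps2, 27 for Rpl9, and 26 each for Rpl23a and Rpsa. Whether the probes also bind RNA from such copies was not tested.

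Levels and differences are given on a re-expanded log2 scale, to which the deposited log2 values were converted. The conversion raised 2 to the power of each value and took away 16, and it rests on the range of the deposited values rather than on a stated method. The scale runs from 0.047 to 8.82, and the values of the 12 livers share nearly the same distribution, so a level near the top is set mainly by rank. A probe counted as kept when its mean lay above the 30th percentile of all probe means, which held for 15753 probes and for 63 of the 67 members. The 39 kept probes of the large subunit had a median of 5.50 to 6.16 in the 12 livers, the 23 of the small subunit a median of 6.04 to 6.43, and all kept probes a median of 0.41. Rplp0, the base of the stalk that recruits elongation factors, had values of 8.37 to 8.65 that ranked between 4 and 12 of all probes. Rplp2, another protein of the stalk, read 0.13 to 0.27. Rpl11, Rpl12, Rpl34 and Rpl36a fell below the filter with values of at most 0.24. Probes differ in how well they bind, so levels were compared between livers and not between probes.

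Hepatocyte markers had a median of 7.84 to 8.18 in every liver and erythroid markers 1.85 to 2.40. The skeletal muscle list stood at 4.57 in C replicate 4 and at no more than 0.32 elsewhere, and the stellate cell and fibroblast list at 3.98 in C replicate 1, at 2.18 in C replicate 4 and at no more than 1.85 elsewhere. Rpl3l, a paralog of Rpl3 known from muscle, read 1.14 in C replicate 4, within its range of 0.64 to 1.36 over the 12 livers. MLP-F replicate 2 correlated across all kept probes at 0.981 to 0.993 with the C livers and at 0.980 to 0.988 with its own littermates. Results are therefore given over 12 livers and again over the 11 livers without it. Because a liver that resembles C was removed from a comparison with C, the 11-liver differences from C are larger partly by construction. In whole tissue a lower level from fewer cells of a type and from less RNA per cell cannot be told apart.

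The comparison of MLP with C asks which of these transcripts differed in the newborn liver between the low protein litter and the control litter. Few of them were called. Between MLP and C, 0 of 63 kept members were called higher and 1 was called lower (limma, Benjamini-Hochberg adjusted p under 0.05 over all kept probes), while 2.27% of all kept probes were called higher and 2.08% lower. Members are bright probes, and bright probes were called more often. Among probes with a mean above 4, a limit chosen after the data were seen, 1 of 46 members (2.17%) was called against 10.5% of 913 probes. At an unadjusted p under 0.05, 3 of the 63 members were higher and 12 lower, where 8.98% of all kept probes were higher and 8.35% lower. The called member was Rpl4, which lines the exit tunnel of the large subunit. Rpl4 read 6.16, 6.09, 6.05 and 6.00 in the C livers, 5.67, 5.84, 5.67 and 5.61 in the MLP livers and 5.68, 6.01, 5.84 and 6.19 in the MLP-F livers. The MLP values lay below all C values, while the MLP-F values spread across both groups. Rpl4 fell by 0.38 in MLP (SE 0.10, adjusted p = 0.0481 by limma). It was called in 2 of the 12 fits that each left out 1 liver, both of which left out an MLP-F liver, and the adjusted p was up to 0.125. Without C replicates 1 and 4 its difference was -0.37 (adjusted p = 0.203).

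The members with the next smallest p-values did not pass the adjusted threshold. Rpl41, the smallest protein of the large subunit, read 7.41, 7.38, 7.20 and 7.54 in C and 7.59, 7.61, 7.61 and 7.58 in MLP, a difference of 0.21 (SE 0.061, adjusted p = 0.0801). It took the place of Rpl4 as the only called member without C replicate 4 (0.26, adjusted p = 0.0291) and without C replicates 1 and 4 (0.30, adjusted p = 0.0442). Rps3a, on the side of the small subunit where the message leaves, read 5.61, 5.35, 5.44 and 5.47 in C and 5.25, 5.30, 5.24 and 5.27 in MLP, a difference of -0.21 (SE 0.061, adjusted p = 0.0896). In both members the C and MLP values did not overlap. Rps25 differed by -0.30 (adjusted p = 0.110), Rpl22l1, a paralog of Rpl22, by -0.25 (adjusted p = 0.122) and Rps20 by -0.23 (adjusted p = 0.159). Signs were evenly divided, with 31 members higher and 32 lower in MLP. The median difference was -0.00011 over the large subunit and 0.0047 over the small subunit, beside 0.0037 over all kept probes. The spread between livers of a group, as the SD of each liver's median, was 0.20 for the large and 0.10 for the small subunit.

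The comparison of MLP-F with C asks what differed from the control diet when the low protein diet also held extra folic acid. Over 12 livers it called 0 members higher and 1 lower, with 0.19% of all kept probes called higher and 0.292% lower. An unadjusted p under 0.05 was reached by 3 members higher and 19 lower of 63, where 7.71% of all kept probes reached it higher and 7.23% lower. Rpl17, a large subunit protein of the exit tunnel, was the called member. Rpl17 read 7.43, 7.14, 7.19 and 7.38 in C, 7.49, 7.04, 7.29 and 7.29 in MLP and 6.79, 6.83, 6.53 and 6.72 in MLP-F. All 4 MLP-F livers lay below the lowest liver of the other groups, replicate 2 included. Rpl17 fell by 0.57 in MLP-F relative to C (SE 0.10, adjusted p = 0.0451). The call was kept in 2 of the 12 fits without 1 liver, with an adjusted p of up to 0.135, and without C replicates 1 and 4, which held the muscle and fibroblast transcripts, the difference was -0.45 (adjusted p = 0.245).

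Just outside the threshold were mainly small subunit members, each lower in MLP-F. Rps25 differed by -0.48 (adjusted p = 0.0599), Rps24 by -0.49 (adjusted p = 0.0756), Rps20 by -0.36 (adjusted p = 0.0806) and Rps23 by -0.39 (adjusted p = 0.0927). From the large subunit, the stalk protein Rplp1 differed by -0.22 (adjusted p = 0.0881) and Rpl13a by -0.47 (adjusted p = 0.101). The median difference was -0.044 over the large subunit and -0.13 over the small subunit, beside 0.0044 over all kept probes. Without C replicates 1 and 4 these medians were -0.0044 and -0.061.

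**Figure D1:**
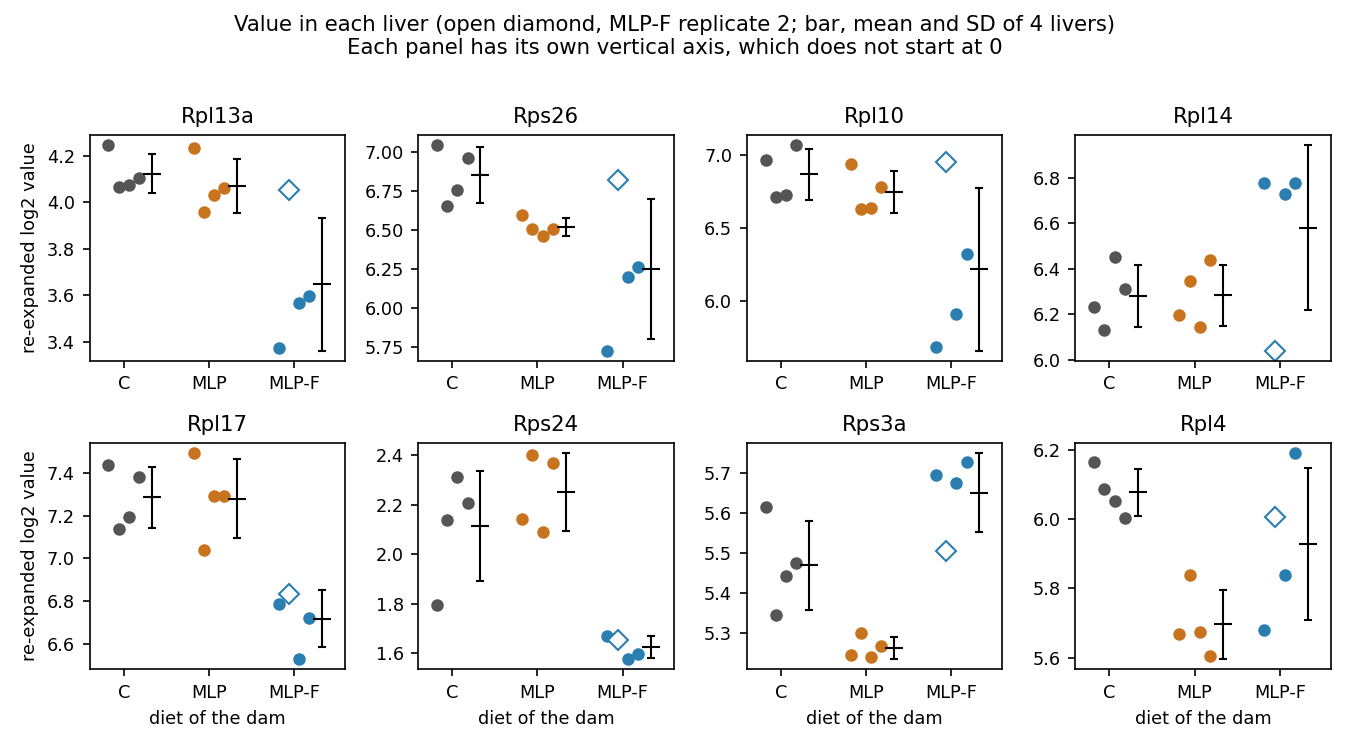
Re-expanded log2 value of 8 members in each of the 12 livers, by diet of the dam. Filled circles are livers, the open diamond is MLP-F replicate 2, and the bars are the mean and SD of all 4 livers of a group. Each panel has its own vertical axis, which does not start at 0. The diamond lies with the C livers for Rpl13a, Rps26 and Rpl10, below every other liver for Rpl14, and with its littermates for Rpl17 and Rps24.

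The comparison of MLP with MLP-F sets 2 low protein diets against each other, with and without the extra folic acid. It called 3 members higher and 1 lower in MLP, together 6.35% of 63, where 3.53% of all kept probes were called higher and 3.05% lower. Among probes with a mean above 4 the share was 6.52% of 46 members against 13.5% of all such probes. Rps24, a small subunit protein, read 2.14, 2.40, 2.09 and 2.37 in MLP against 1.67, 1.65, 1.58 and 1.60 in MLP-F, while C livers read 1.80, 2.14, 2.31 and 2.21. The 4 MLP-F livers lay below every liver of the other groups. The difference was 0.63 (SE 0.10, adjusted p = 0.00638). Rpl17 was higher in MLP by 0.56 (SE 0.10, adjusted p = 0.00918). Rplp1 read 6.82, 6.83, 6.91 and 6.92 in MLP against 6.56, 6.71, 6.58 and 6.64 in MLP-F, a difference of 0.25 (SE 0.052, adjusted p = 0.0162). Rps3a differed the other way and was lower in MLP, as its MLP-F livers read 5.69, 5.51, 5.67 and 5.73 against 5.25, 5.30, 5.24 and 5.27 in MLP. Its difference was -0.38 (SE 0.061, adjusted p = 0.00511), and the C livers lay between these groups except for replicate 1, which overlapped MLP-F replicate 2. Rpl13, the next member, differed by 0.21 (adjusted p = 0.0584) and Rpl13a by 0.42 (adjusted p = 0.0608). Rpl10a was lower in MLP without overlap, by -0.23 (adjusted p = 0.0948), and Rps2 differed by 0.43 (adjusted p = 0.0950). Rps24, Rpl17 and Rps3a were called in each of the 12 fits without 1 liver, and Rplp1 in 11, with an adjusted p of 0.0501 without MLP replicate 3. The median difference was 0.033 over the large subunit and 0.10 over the small subunit, beside -0.0012 over all kept probes.

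Without MLP-F replicate 2 many more members separated MLP-F from C. Of 63 members 6 were called higher and 15 lower in the 11 livers, together 33.3%, while 2.65% of all kept probes were called higher and 3.31% lower. The large subunit held 3 called higher and 8 lower of 39, and the small subunit 3 higher and 7 lower of 23. The groups did not overlap for 9 members on the higher side and 18 on the lower side, where 8.34% of all kept probes did not overlap on the higher side and 8.42% on the lower side. Among probes with a mean above 4, 15.4% of 913 probes were called and 17 of 46 members (37%). The median difference was -0.11 over the large subunit and -0.16 over the small subunit, beside 0.0042 over all kept probes. Of the marker lists, 0 of 20 erythroid probes were called higher and 2 lower, with a median of 0.0018, and 0 of 11 hepatocyte probes were called higher and 1 lower, with a median of 0.00047. The called probes were the band 3 anion exchanger Slc4a1 (-0.66), the transferrin receptor Tfrc (-0.42) and the urea cycle enzyme Cps1 (-1.20). In MLP relative to C, 2 of the 20 erythroid probes were called higher and 3 lower, with a median of -0.11. Of the 11 hepatocyte probes 0 were called there, with a median of 0.033. The 10 skeletal muscle, 6 lung and keratinocyte and 11 stellate cell and fibroblast probes had median differences of -1.12, -0.83 and -0.73, with 0 of them called, and in MLP their medians were -0.99, -0.84 and -1.01 relative to C, also with 0 called. Like the muscle list, the lung and keratinocyte list had a high median in C replicate 4, at 1.42 against at most 0.23 elsewhere. That median came from the lung probes Scgb1a1, Sftpa1 and Sftpc, at 4.2, 1.7 and 1.1 in C replicate 4. The keratin probes Krt14 and Krt15 read 0.15 and 0.091 there and were high in C replicate 1, at 3.56 and 3.49. The part of these lists in the members' differences was not tested.

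The largest falls were in Rpl10, Rps26, Rpl5 and Rps2. Rpl10, which joins the large subunit late in its assembly next to the site of peptide bond formation, read 6.97, 6.71, 6.73 and 7.07 in C, 6.94, 6.63, 6.64 and 6.78 in MLP and 5.68, 5.91 and 6.32 in the 3 MLP-F livers, with replicate 2 at 6.95. It fell by 0.90 (SE 0.15, adjusted p = 0.00955). Rps26, at the exit of the message channel, read 7.04, 6.65, 6.76 and 6.96 in C, 6.60, 6.51, 6.46 and 6.51 in MLP and 5.73, 6.20 and 6.26 in the 3 MLP-F livers, with replicate 2 at 6.82. Every one of the 3 livers lay below all C and MLP livers in both members, and replicate 2 lay among the C livers. Rps26 fell by 0.79 (SE 0.13, adjusted p = 0.00941). Rpl13a, known outside the ribosome for silencing inflammatory transcripts in human monocytic cells, read 4.24, 4.06, 4.07 and 4.10 in C, 4.23, 3.96, 4.03 and 4.06 in MLP and 3.38, 3.57 and 3.60 in the 3 MLP-F livers, with replicate 2 at 4.05. It had the smallest p of all members, falling by 0.61 (SE 0.077, adjusted p = 0.00414). Rpl10, Rps26 and Rpl13a were the members called in all 11 fits that left out 1 more liver.

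Rpl5, which forms a particle with Rpl11 that can bind the p53 ligase Mdm2, read 1.40, 1.24, 1.15 and 1.03 in C, 0.83, 0.92, 0.74 and 0.46 in MLP and 0.71, 0.39 and 0.60 in the 3 MLP-F livers. The MLP livers also lay below all C livers for Rpl5, where the difference of MLP from C was -0.46 (adjusted p = 0.189). In MLP-F it fell by 0.64 (SE 0.12, adjusted p = 0.0164). Rpl17 fell by 0.61 (adjusted p = 0.0137) and the stalk protein Rplp1 by 0.25 (adjusted p = 0.0263). The other large subunit members called lower were Rpl23, Rpl19 and Rpl35. Rpl23, at the face that meets the small subunit, stood at 4.96 ± 0.15 in C (SD, n = 4) and 4.55 ± 0.15 in the 3 MLP-F livers (adjusted p = 0.0249). Rpl19, which forms a bridge between the subunits, stood at 6.73 ± 0.11 against 6.39 ± 0.17 (adjusted p = 0.0363), and Rpl35, near the exit of the tunnel, at 6.48 ± 0.11 against 6.13 ± 0.056 (adjusted p = 0.0373).

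From the small subunit, Rps2, Rps12, Rps20, Rps23, Rps24 and Rps25 were called lower beside Rps26. Rps2, near the entry of the message channel, read 2.96, 2.62, 2.97 and 3.18 in C, 2.88, 2.81, 2.93 and 2.73 in MLP and 2.43, 2.05 and 2.40 in the 3 MLP-F livers, and fell by 0.64 (SE 0.13, adjusted p = 0.0198). Rps12 read 4.36, 4.27, 4.25 and 4.32 in C, 4.37, 4.30, 4.47 and 4.27 in MLP and 3.82, 3.97 and 4.03 in the 3 MLP-F livers, and fell by 0.36 (SE 0.063, adjusted p = 0.0121). In both members the 3 MLP-F livers lay below every C and MLP liver. Rps25, which some viral messages need for initiation, stood at 6.66 ± 0.10 in C (SD, n = 4) and 6.15 ± 0.26 in MLP-F (adjusted p = 0.0221). Rps20 stood at 7.27 ± 0.11 in C and 6.87 ± 0.13 in MLP-F (adjusted p = 0.0229). Rps23, a protein of the decoding centre, stood at 4.71 ± 0.18 against 4.26 ± 0.10 (adjusted p = 0.0254), and Rps24 at 2.11 ± 0.22 against 1.62 ± 0.048 (adjusted p = 0.0348).

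Members called higher in the 3 MLP-F livers were Rpl8, Rpl14 and Rpl21 of the large subunit and Rpsa, Rps27 and Rps3a of the small subunit. Rpl14 read 6.23, 6.13, 6.45 and 6.31 in C, 6.20, 6.35, 6.15 and 6.44 in MLP and 6.78, 6.73 and 6.78 in the 3 MLP-F livers, and rose by 0.48 (SE 0.085, adjusted p = 0.0124). MLP-F replicate 2, at 6.04, was the lowest of all 12 livers. Rpl8, near the site of peptide bond formation, read 5.51, 5.50, 5.95 and 5.75 in C, 5.68, 5.65, 5.60 and 5.95 in MLP and 6.41, 6.08 and 6.36 in the 3 MLP-F livers, and rose by 0.61 (SE 0.13, adjusted p = 0.0238). Rpsa, also known as a laminin receptor, read 7.35, 7.52, 7.79 and 7.70 in C, 7.88, 7.84, 7.70 and 7.88 in MLP and 8.20, 8.05 and 8.00 in the 3 MLP-F livers, and rose by 0.49 (SE 0.10, adjusted p = 0.0201). In Rpl14, Rpl8 and Rpsa the 3 MLP-F livers lay above every C and MLP liver, and replicate 2 did not. Rps27 stood at 6.00 ± 0.17 in C (SD, n = 4) and 6.48 ± 0.16 in MLP-F (adjusted p = 0.0303), Rpl21 at 6.11 ± 0.14 against 6.51 ± 0.17 (adjusted p = 0.0437) and Rps3a at 5.47 ± 0.11 against 5.70 ± 0.027 (adjusted p = 0.0431).

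**Figure D2:**
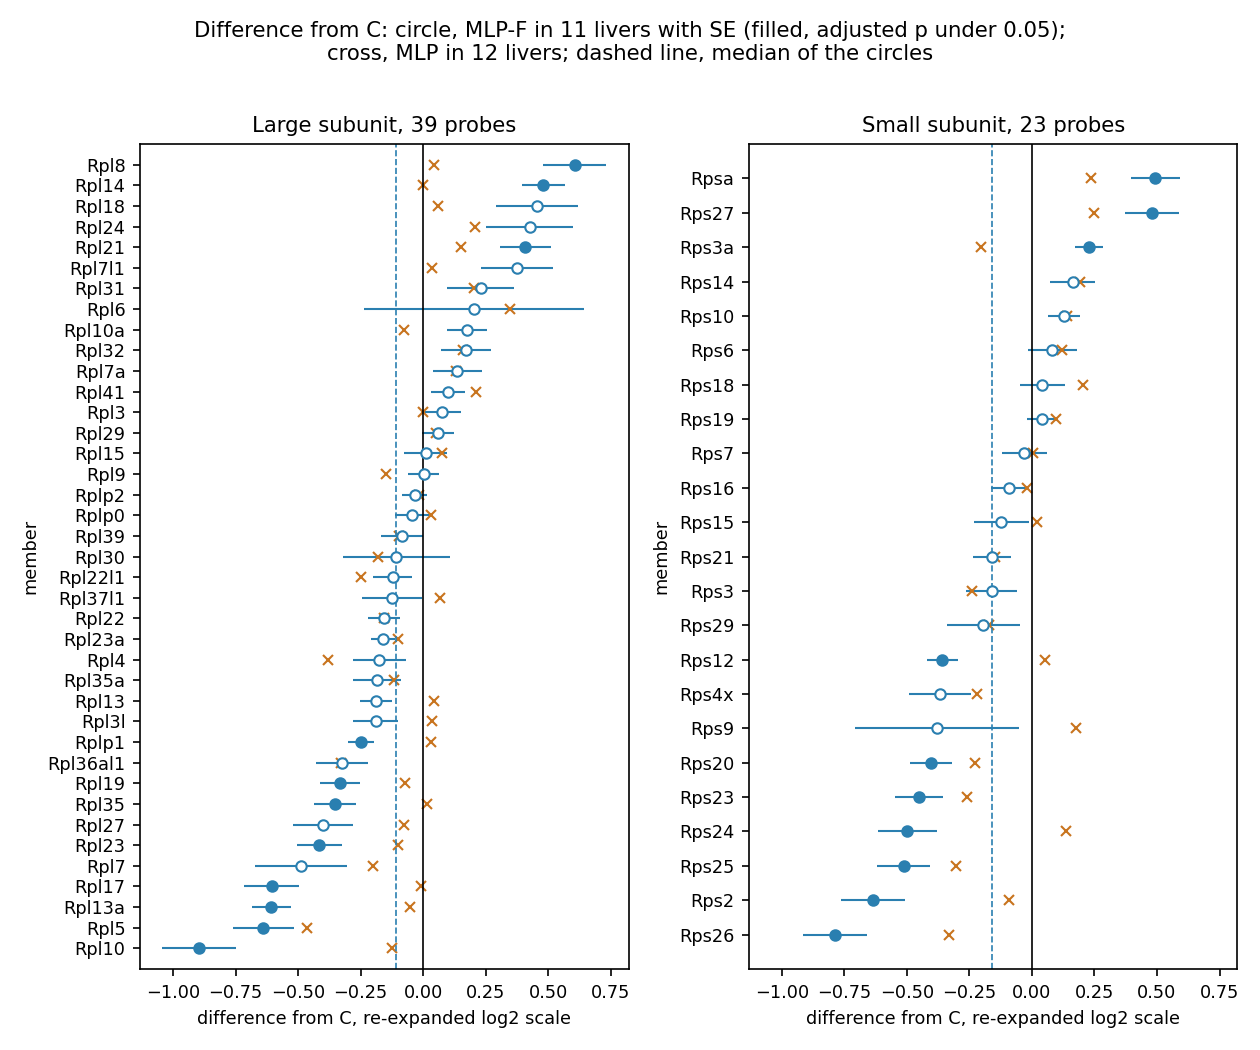
Difference from C on the re-expanded log2 scale for the 39 large and 23 small subunit members that were kept. Circles with SE bars are MLP-F in 11 livers, filled where the adjusted p is under 0.05, crosses are MLP in 12 livers, and dashed lines are the medians of the circles at -0.11 and -0.16. The circles reach from -0.90 in Rpl10 to 0.61 in Rpl8, and filled circles lie on both sides of 0.

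The count of 21 depended on which livers entered. Over 12 livers, leaving out MLP-F replicate 1, 3 or 4 in place of replicate 2 gave 0, 0 and 1 called members. Of all kept probes these fits called 0.0825%, 0.00635% and 0.209%. From the 11 livers, 5 members were called without MLP-F replicate 1, 6 without replicate 3 and 22 without replicate 4. These were 7.94%, 9.52% and 34.9% of members, beside 1.4%, 2.78% and 6.08% of all kept probes. By direction the member counts were 0 higher and 5 lower, 2 higher and 4 lower, and 4 higher and 18 lower. None of the 6 members called higher thus remained without MLP-F replicate 1. Without C replicates 1 and 4 the 11-liver comparison called 3 members, 4.76% against 1.44% of all kept probes, and above a mean of 4 it called 1 of 46 members (2.17%) against 4.38% of all probes. With 2 fewer C livers in the fit, all 21 members kept the sign of their difference. The median difference there was -0.051 over the large subunit and -0.10 over the small subunit. The 3 called members were Rpl13a (-0.56, adjusted p = 0.0360), Rps24 (-0.61, adjusted p = 0.0377) and Rps3a (0.30, adjusted p = 0.0377). Rpl10 and Rps26, at -0.75 and -0.64 there, were not called (adjusted p = 0.0695 and 0.0658).

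**Figure D3:**
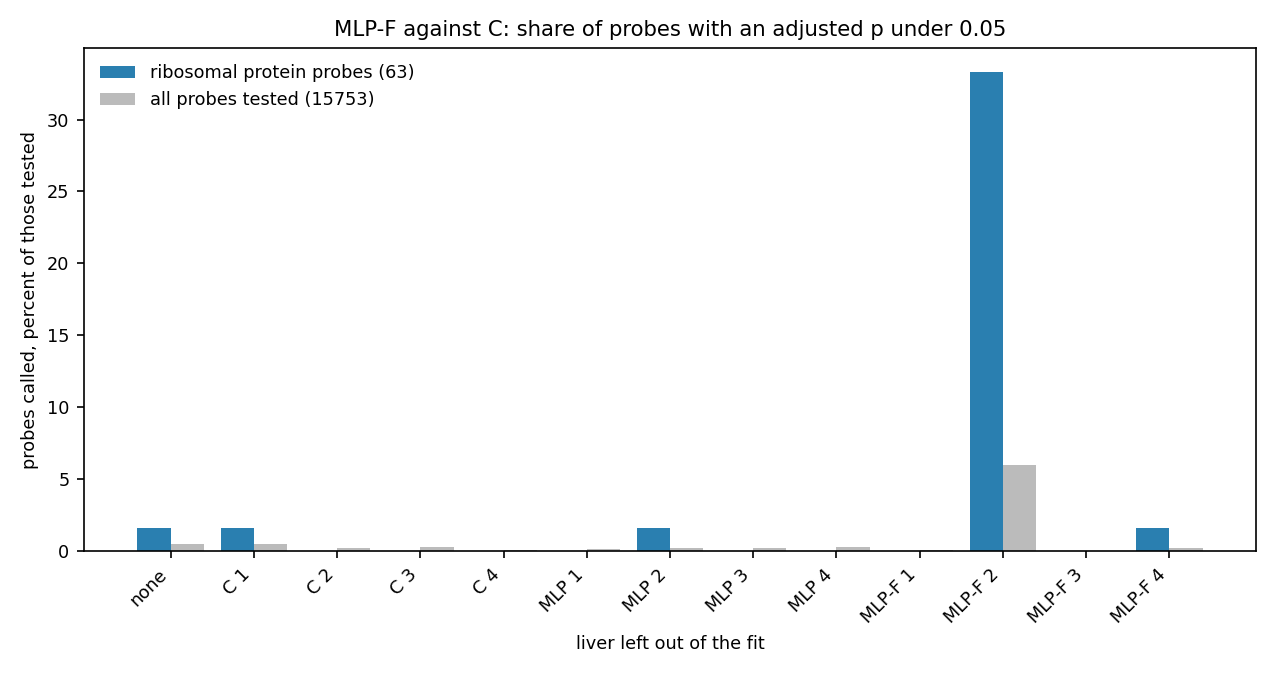
Share of probes with an adjusted p under 0.05 between MLP-F and C, in percent, for the 63 kept ribosomal protein probes (blue) and for all 15753 kept probes (grey). Each pair of bars is a fit without the liver named below it. Leaving out MLP-F replicate 2 gave 33.3% and 5.97%, and each of the other fits called at most 1 member.

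MLP-F replicate 2 took no part in the 11-liver fit. Its value was nearer the C mean than the mean of its littermates for 16 of the 21 called members (76.2%), for 43 of all 63 kept members (68.3%) and for 730 of the 940 probes called over the whole array (77.7%). Over all 15753 kept probes the count was 9293 (59%). The members for which it lay nearer its littermates were Rpl17, Rplp1, Rps20, Rps24 and Rps25. The share among called members was thus close to that among all called probes.

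The livers within a group also differed along the same members. For the 15 members called lower, the median deviation from the C mean was -0.50, -0.55 and -0.36 in MLP-F replicates 1, 3 and 4 and -0.071 in replicate 2. For the 6 called higher it was 0.60, 0.40 and 0.39 in those 3 livers and -0.14 in replicate 2. The C livers also spread around their own mean, at 0.12, -0.12, -0.047 and 0.031 in replicates 1 to 4 for the members called lower and at -0.10, -0.14, 0.19 and 0.052 for those called higher. Replicate 1 thus lay opposite to MLP-F on both lists and replicate 3 on the same side as MLP-F on both. In MLP the deviations ran from -0.18 to -0.047 for the first list and from -0.012 to 0.28 for the second. These members were chosen by the contrast of MLP-F with C, so their MLP-F values are a description.

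**Figure D4:**
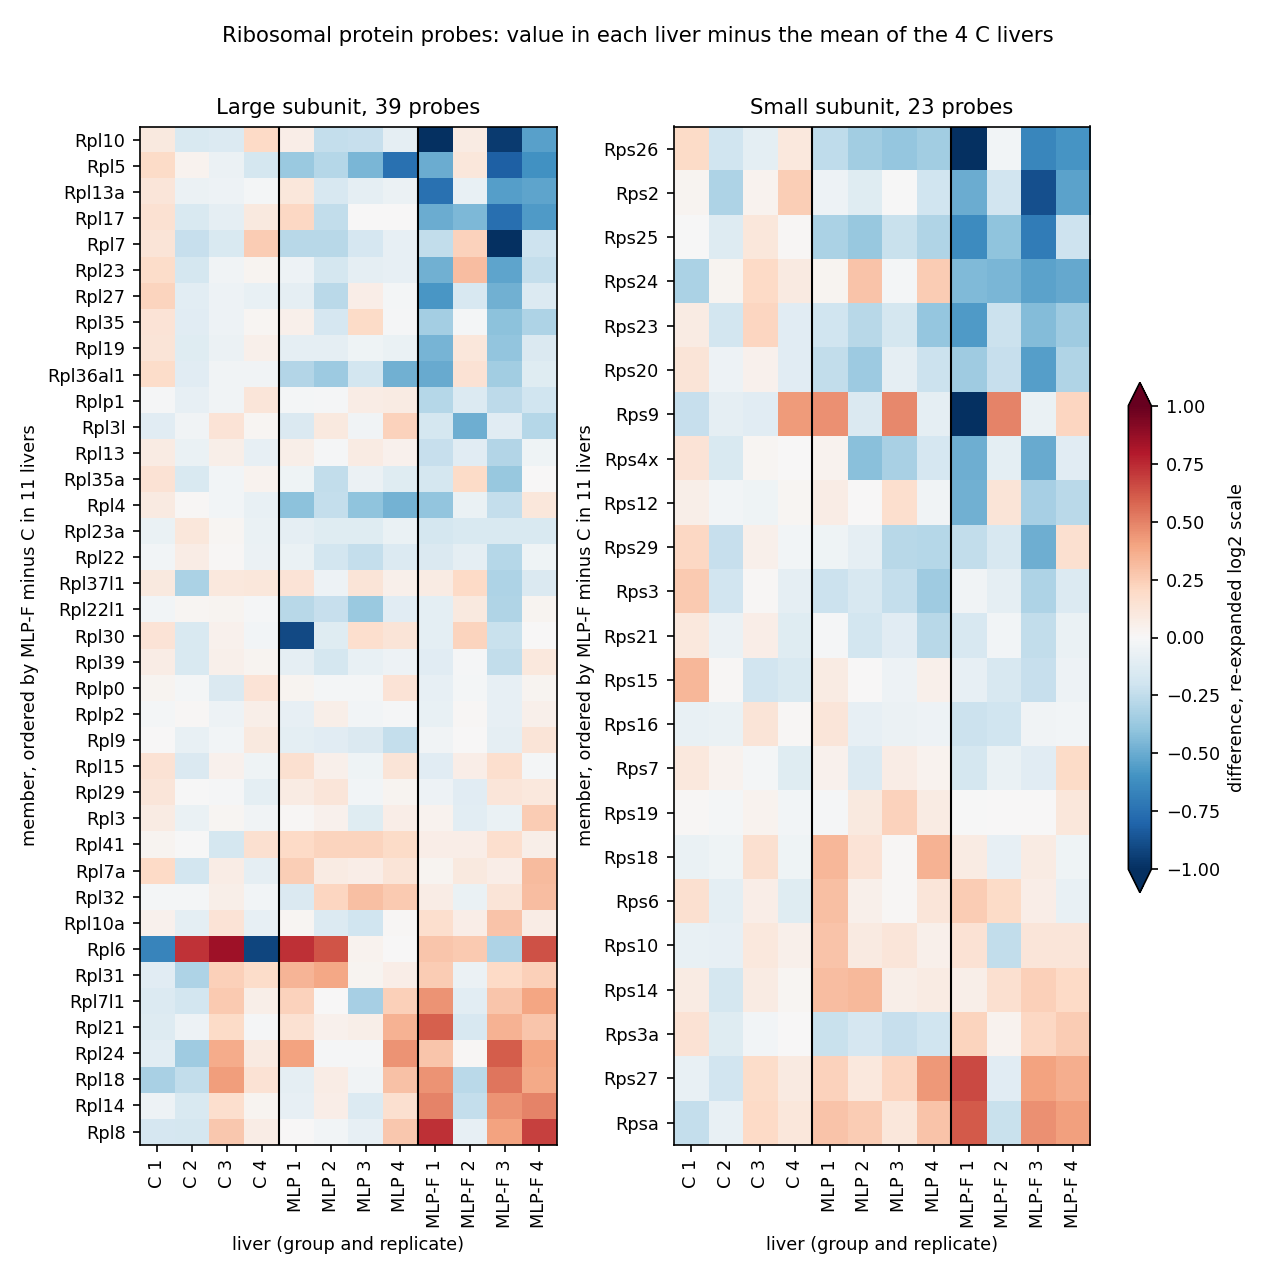
Value of each kept member in each liver minus the mean of the 4 C livers, on the re-expanded log2 scale, with red above and blue below that mean and the colour scale ending at 1 and -1. Rows are ordered by the difference of MLP-F from C in 11 livers, so the order of rows is set by those columns. MLP-F replicates 1, 3 and 4 are mostly blue at the top and red at the bottom, while replicate 2 lay nearer the C mean for 16 of the 21 called members, with Rpl17, Rplp1, Rps20, Rps24 and Rps25 as the exceptions.

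The comparison of MLP with the 3 remaining MLP-F livers called 8 members higher in MLP and 3 lower, where 4.64% of all kept probes were called higher and 3.96% lower. Among probes with a mean above 4 the share was 17.4% of members against 19.9% of all probes, so the members' share was near the background. The members higher in MLP were Rps2, Rps12, Rps24, Rpl10, Rpl13a, Rpl17, Rpl35 and Rplp1, with differences from 0.28 in Rplp1 to 0.77 in Rpl10. Those lower in MLP were Rps3a (-0.43, adjusted p = 0.00236), Rpl14 (-0.48, adjusted p = 0.00785) and Rpl8 (-0.56, adjusted p = 0.0234). The median difference was 0.018 over the large subunit and 0.073 over the small subunit, beside -0.0015 over all kept probes.

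Rpl6, Rpl30 and Rps9 showed large spread within a group and were called in no comparison. Rpl6 read 5.42, 6.80, 6.92 and 5.16 in C, and its MLP and MLP-F livers lay between 5.77 and 6.81. Rpl30 read 2.85, 3.63, 3.92 and 3.88 in MLP, where replicate 1 was the lowest of all 12 livers. Rps9 read 1.00, 2.79, 2.23 and 2.51 in MLP-F, with replicate 1 the lowest of all livers. Other well known members also stayed above the threshold. Rps6, the target of the S6 kinases, had a mean of 6.71 ± 0.13 in C, 6.83 ± 0.13 in MLP and 6.81 ± 0.15 in MLP-F (SD, n = 4 each), and its adjusted p by limma was at least 0.569 in the comparisons over 12 livers. Rplp0 stood at 8.51 ± 0.12, 8.54 ± 0.076 and 8.48 ± 0.052 in the same order. Rps19bp1 lay between 0.16 and 0.33 in the 12 livers.

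Members with and without the match at the gene start were also set side by side. Of the 51 kept members with a RefSeq start, 29 held the match and 22 did not. The match depends on where RefSeq places the start, so a member without it need not lack a TOP tract. In the Rpl13a window printed above, a run of C and T begins upstream of the searched positions. In the 11-liver comparison of MLP-F with C the median difference was -0.16 with the match, where 3 members were called higher and 9 lower, and 0.014 without it, where 2 were called higher and 4 lower. Between MLP and C the medians were -0.0067 and 0.036. The difference between these sets was not tested. Among the windows printed above, the members called in that comparison that held the match were Rpl10, Rpl14, Rpl17, Rplp1, Rps3a, Rps23, Rps24 and Rps26, and those that did not were Rpl5, Rpl13a and Rpsa.

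Other genes of the translation machinery were described by lists. Rack1, a scaffold protein on the small subunit whose symbol lies outside the rule, read 6.55, 6.15, 6.12 and 6.40 in C, 6.22, 5.94, 5.96 and 5.83 in MLP and 5.48, 6.27, 5.31 and 5.83 in MLP-F. Replicate 2 was the highest MLP-F liver, and without it Rack1 fell by 0.76 relative to C (SE 0.14, adjusted p = 0.0160). Of 18 kept probes for elongation factors and other TOP messenger RNAs, 0 were called higher and 3 lower in the same comparison, with a median of -0.080. These were Npm1, a nucleolar chaperone (-1.21, adjusted p = 0.0112), Eef1b2, which recharges elongation factor eEF1A with GTP (-0.69, adjusted p = 0.00311), and the initiation factor subunit Eif3e (-0.57, adjusted p = 0.0139). Eef1b2 was also called lower in MLP, where it read 4.87, 4.80, 4.79 and 4.82 against 5.35, 5.12, 5.46 and 5.31 in C, a difference of -0.49 (SE 0.12, adjusted p = 0.0453). The MLP values lay below all C values.

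Among 23 kept probes of other initiation factors, 1 was called higher and 2 lower between MLP-F and C in 11 livers. Eif4a2, an RNA helicase, was the higher (0.47), and Eif1a (-0.73) and Eif5a (-0.63) were the lower. Ribosome biogenesis had 1 higher and 2 lower of 58, among them the helicase Ddx21 (-0.61, adjusted p = 0.00614), the box C/D particle protein Nop56 (-0.64, adjusted p = 0.0249) and the nuclease Nob1 (0.58, adjusted p = 0.0153), which was the higher. RNA polymerase I and its factors had 1 higher of 7, Ubtf (0.26, adjusted p = 0.0122). The list of mTOR, Myc, LARP1 and S6 kinase genes had 3 higher and 0 lower of 23, namely Rps6kb2 (0.32), the Myc antagonist Mnt (0.46) and the mTOR inhibitor Tsc2 (0.39), and ribosome quality control 1 higher of 7, Hbs1l (0.46). The mitochondrial ribosomal proteins, which serve the separate ribosome of that organelle, had 4 higher and 4 lower of 56 with a median of -0.0015, among them Mrpl22 (-0.46, adjusted p = 0.00372), Mrpl36 (-0.90), Mrpl42 (-0.53) and Mrps5 (0.33). Between MLP and C these lists had at most 2 called probes each, and between MLP-F and C over 12 livers 0. Called higher in MLP than in C were Eif2b3 (0.26), Noc4l (0.26) and Rrp1 (0.40) of ribosome biogenesis, Ddit4 of the mTOR list (0.54) and Mrpl3 (0.56). Eef1b2 and Mrpl21 (-0.38) were called lower. No list was tested as a whole.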

How the data were processed

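Liver RNA of 12 pups was hybridised to Illumina RatRef-12 arrays. The authors processed bead summaries with beadarray and limma in R and applied quantile normalization. No source used here gives their probe filter or background correction. The deposited values are log2 values that run from 4.00 to 4.63, and 16 was taken from 2 raised to each value, a reading that comes from the values alone. A second deposited table has 12 columns named by array position that match no label, and these were not used. No detection p-values were used.

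Of 22505 probes, the 15753 whose mean exceeded the 30th percentile of probe means entered the tests. In R 4.3.3, limma 3.58.1 (lmFit, contrasts.fit and eBayes) was run on all 12 livers, with 9 residual degrees of freedom, and again on 11 livers without MLP-F replicate 2. Tests were two-sided, and p-values were adjusted by the Benjamini-Hochberg method over all kept probes. Every adjusted p-value is limma's. The fit was tested on simulated data. Symbols came from the platform annotation, which gave 1 symbol to 13778 probes, several to 0 and none to 8727, and 66 of 67 member Entrez identifiers were in the RefSeq table of GRCr8. Start windows were read with Python 3.11.15 and pandas 2.3.3.

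The members and the lists were chosen with earlier results of these data known. Members named with values are those called in any comparison, those with the smallest p in each comparison over 12 livers and each subunit, Rplp0, Rplp1, Rplp2 and Rpsa, and those below the filter. Rpl6, Rpl10a, Rpl30, Rps6 and Rps9 were chosen after their values were seen, Rps6 as the known S6 kinase target. From each list the 3 probes of smallest p between MLP and C or between MLP-F and C, over 12 or 11 livers, were eligible, and those called between MLP-F and C in 11 livers were named. From the lists of the translation machinery, those called between MLP and C were named as well. The labels give each group replicates 1 to 4, and no source used here says that the numbers pair the livers. Deviations from group means correlated at -0.22 to 0.14 between livers of the same number. Livers of unlike number were not compared in this way, and the main fits used no pairing. The number of arrays limits the precision.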

Additional observations from a re-analysis of the deposited data

Results flagged for a closer look

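In 99 groups of 4 livers, formed by the 3 diets for each of the 31 named members and for the median of each subunit, 3 groups held a liver whose gap to the nearest littermate, as a share of the group's range, passed Dixon's critical value for 4 samples. The rule marks about 1 in 20 groups by chance where groups are independent, and these groups share their livers. Rpl14 in MLP-F replicate 2 was at 6.04, with its littermates between 6.73 and 6.78, a gap of 93.4% of the range. Rpl41 in MLP-F replicate 3 was at 7.56, with its littermates between 7.44 and 7.45 (89.9%). Rpl12, a member below the filter, was at 0.090 in MLP replicate 2, with its littermates between 0.14 and 0.15 (84.5%).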

How the results depend on the processing

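Counts of called members were small over 12 livers, and Rpl4 between MLP and C and Rpl17 between MLP-F and C lay close to the threshold. Between MLP and C the count of 1 became 0 without the filter, on the deposited scale, with quantile normalization added, with a trended and robust eBayes fit, and with the replicate number as a block, and it ran from 0 to 2 when single livers were left out. The share of all tested probes called was 4.35%, and in the 5 settings named it was 2.18%, 4.47%, 4.28%, 4.74% and 3.57%. It ran from 2.13% to 5.17% when single livers were left out. Without C replicate 4, and without C replicates 1 and 4, the count stayed at 1 but the member was Rpl41 in place of Rpl4. The count was also 1 without MLP-F replicate 2 and without MLP-F replicate 3. In those fits 0 members with a mean above 4 were called, so the member was neither Rpl4 nor Rpl41. Between MLP-F and C the count of 1 became 0 without the filter, with the replicate block and without C replicates 1 and 4, became 2 with the filter at the 50th percentile, and ran from 0 to 21 when single livers were left out, the 21 being without MLP-F replicate 2. The share of all tested probes was 0.482%, and in the settings named, in that order, 0.164%, 0.184%, 0.0889%, 0.835% and, without MLP-F replicate 2, 5.97%. Between MLP and MLP-F the count of 4 ran from 3 to 11. The share of all kept probes there was 6.58%, with 3.94% without MLP replicate 3 and 8.6% without MLP-F replicate 2. In 11 livers the 21 members between MLP-F and C became 3 without C replicates 1 and 4 and ran from 5 to 22 without single livers, and the 11 between MLP and MLP-F ran from 7 to 15. Between MLP-F and C the share of all kept probes in 11 livers was 5.97%. It was 1.44% without C replicates 1 and 4, 1.4% without MLP-F replicate 1 and 6.08% without MLP-F replicate 4. Between MLP and MLP-F it was 8.6%, and 3.88% and 5.75% without MLP-F replicates 1 and 4. With the replicate block the counts were 4 between MLP and MLP-F, and 14 and 11 in the 11-liver comparisons. These fits called 5.79%, 4.27% and 6.13% of all kept probes. The 14 between MLP-F and C were 1 higher and 13 lower. Whether the replicate numbers pair the livers was not established, and the main fits used no pairing. No called member changed sign under these settings. Subunit medians moved by less than the spread between littermates in every setting run, and they were not computed on the deposited scale, whose unit differs. The cause of these changes was not tested.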
